A study of Mus musculus with 7 samples.

Results

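The protein kinase C (PKC) genes Prkca, Prkcb, Prkcd, Prkce, Prkch, Prkcq, Prkci and Prkcz, together with the phosphatase inhibitor gene Ppp1r14c, were followed in RNA-seq counts of cortical neurons from mouse embryos. The 9 genes were chosen by symbol with earlier results of the genotype contrast known, and they are 9 of 26286 genes in the deposited table. Their levels and differences between genotypes are therefore a description, given without a p-value. The 4 KAT7 mutant libraries and the 3 wild type libraries each came from a male C57BL/6 embryo at E16.5, taken as polyA RNA of brain and labelled as cortical neurons. KAT7 is a histone acetyltransferase. The labels used here name neither the mutant allele nor any Cre driver, and give no treatment.

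PKC enzymes are serine/threonine kinases that act downstream of receptors coupled to phospholipase C. Conventional isoforms need calcium and diacylglycerol, isoforms of the delta group (delta, epsilon, eta and theta) need diacylglycerol but not calcium, and atypical isoforms need neither and work in polarity complexes with Par proteins. In neurons, PKC phosphorylates membrane and growth cone proteins such as MARCKS and GAP43. Ppp1r14c encodes KEPI, an inhibitor of protein phosphatase 1 (PP1) that becomes potent once PKC has phosphorylated it. Through KEPI, the kinase can thus restrain the phosphatase.

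Libraries held 8272487 to 8813060 counts, and 13681 genes passed a filter on low counts. Kat7 had 3, 4, 3 and 10 counts in KAT7 mutant replicates 1 to 4, against 869, 848 and 854 in wild type replicates 1 to 3. Pan-neuronal markers summed to 8888 to 9608 counts per 1000000 (CPM) in mutant and 9966 to 10560 CPM in wild type libraries, with 3 of 8 called higher (Rbfox3, Elavl3 and Elavl4) and 2 called lower (Tubb3 and Stmn2). Stmn2 averaged 328 CPM in mutant and 1334 CPM in wild type libraries, a gap about as wide as that between the sums. Excitatory cortical neuron markers summed to 4201 to 4392 CPM in mutant and 3892 to 4284 CPM in wild type libraries, with 3 of 7 called higher and 2 called lower. Markers of radial glia summed to 176 to 215 CPM in mutant and 240 to 258 CPM in wild type libraries, with 5 of 7 called lower. Those of interneurons and ventral telencephalon summed to 271 to 375 CPM in mutant and 197 to 293 CPM in wild type libraries, with 5 of 7 called higher. Those of microglia and macrophages summed to 26.8 to 35.7 CPM in mutant and 17.2 to 20.02 CPM in wild type libraries, with 4 of 6 tested called higher. Oligodendrocyte lineage markers summed to 30.6 to 46.2 CPM in mutant and 25.4 to 30.3 CPM in wild type libraries, with 4 of 6 called higher (Olig1, Olig2, Pdgfra and Sox10). Astrocyte markers summed to 113.6 to 137 CPM in mutant and 123 to 139 CPM in wild type libraries, with 2 of 4 tested called lower (Gfap and Gja1). Slc1a2, not called, made up most of these sums, at a mean of 117 CPM in mutant and 115 CPM in wild type libraries. Aldh1l1, at a log2 fold change of 0.54, was not called either. Markers of red blood cells and choroid plexus had sums that overlapped between genotypes. The part of these cell type differences in the values below was not tested. In bulk libraries, fewer cells of a type and less RNA per cell cannot be told apart.

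All 9 members passed the filter, 8 of them with every library of both genotypes at or above its cutoff. Prkcq was at the cutoff in KAT7 mutant replicate 1, with 10 counts. Prkch passed with 3 of 4 mutant libraries and all 3 wild type libraries. In the edgeR quasi-likelihood fit over all tested genes (Benjamini-Hochberg adjusted p under 0.05), Prkcd, Ppp1r14c and Prkch were called lower in KAT7 mutant and no member was called higher. Of all tested genes, 15.8% were called lower and 13.1% higher. CPM of the genotypes did not overlap for 5 of the 9 members, Prkcd, Prkce, Prkch, Prkcz and Ppp1r14c, against 35.3% of all tested genes. Because the members were taken from this contrast, nothing is read from these counts.

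**Figure D1:**
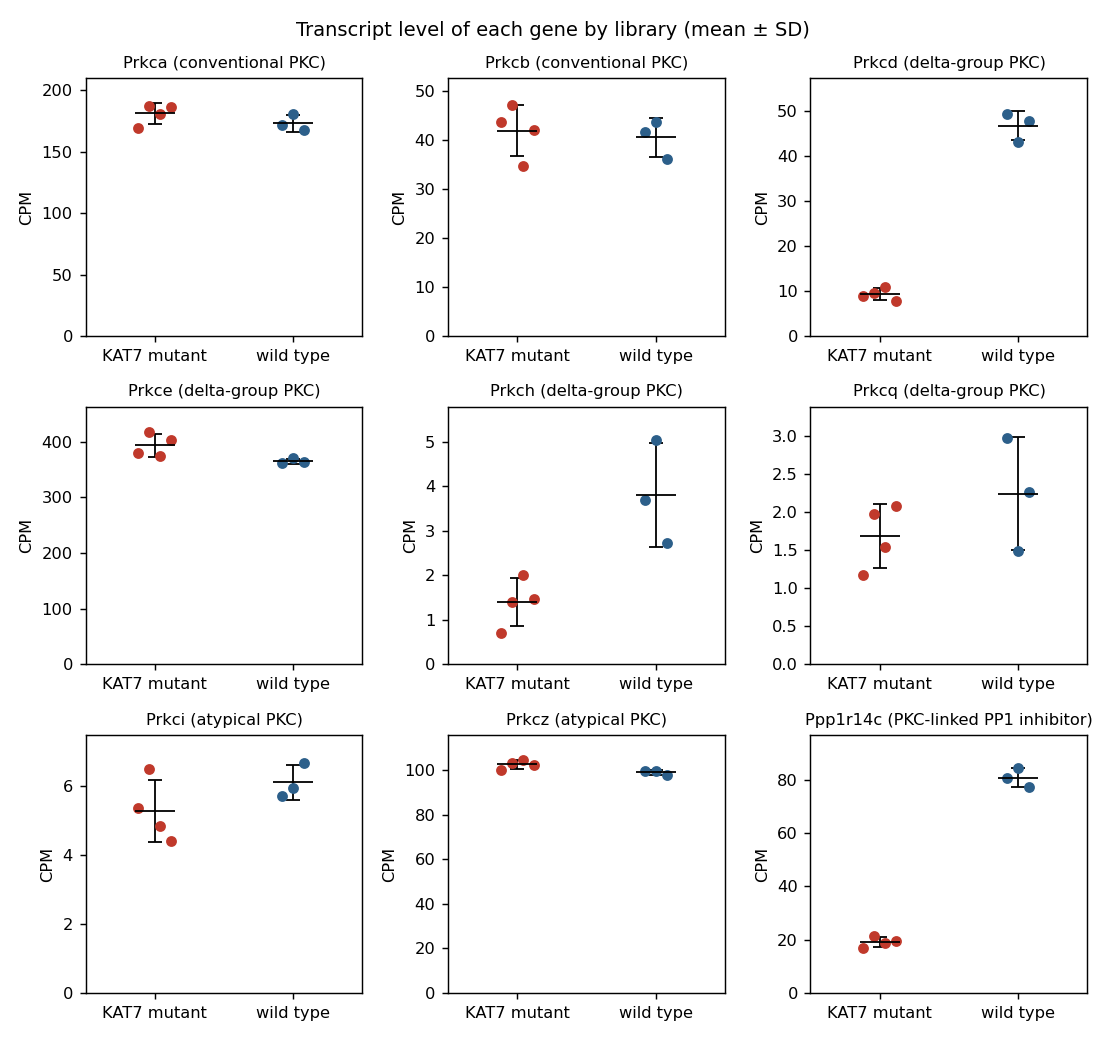
CPM of each member in every library, with KAT7 mutant libraries (red, n = 4) left and wild type libraries (blue, n = 3) right in each panel; dots are libraries, and bars are the mean ± SD. Prkcd and Ppp1r14c lie far lower in all mutant libraries, Prkch is lower at a level of a few CPM, and the other members lie close between genotypes.

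Prkcd encodes PKC delta, which is also known for its strong expression in thalamic neurons. It had 9.00, 9.62, 11.0 and 7.70 CPM in KAT7 mutant replicates 1 to 4, against 49.3, 43.1 and 47.9 CPM in wild type replicates 1 to 3. The highest mutant library lay far below the lowest wild type library. The mean was 9.33 ± 1.36 CPM in mutant (SD, n = 4) and 46.8 ± 3.21 CPM in wild type (SD, n = 3), so mutant libraries held 19.9% of the wild type CPM. The log2 fold change was -2.32 ± 0.10 (SE), rank 51 of 13681 tested genes counted from the most negative. The thalamic markers Tcf7l2, Lhx9, Gbx2 and Slc17a6 summed to 56.6 to 69.3 CPM in mutant and 64.8 to 70.0 CPM in wild type libraries. Slc17a6 made up most of these sums, at a mean of 45.5 CPM in mutant and 54.8 CPM in wild type libraries. It alone of the 3 tested was called lower, at a log2 fold change of -0.27. Tcf7l2, at -0.73 ± 0.41 (SE) and at most 17 counts in any library, and Lhx9, at 0.38 ± 0.14 (SE), were not called. The part of thalamic cells in the Prkcd values was not tested. Gbx2 had 0 counts in all mutant libraries and 1, 0 and 0 counts in wild type replicates 1 to 3, too few to be tested.

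Ppp1r14c had 16.7, 21.2, 18.8 and 19.4 CPM in KAT7 mutant replicates 1 to 4, against 80.7, 84.4 and 77.2 CPM in wild type replicates 1 to 3. All mutant libraries were low and close together, and the genotypes were widely apart. The mean was 19.0 ± 1.86 CPM in mutant (SD, n = 4) and 80.8 ± 3.65 CPM in wild type (SD, n = 3), so mutant libraries held 23.6% of the wild type CPM. The log2 fold change was -2.08 ± 0.08 (SE), rank 71 by the same count.

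The sequences upstream of the start sites of these 2 genes are shown because they are the members with the most negative fold changes. Each is the 250 bases before a RefSeq start site, 5′ to 3′ on the gene's strand in assembly GRCm38.p6, with CpG dinucleotides in capitals. The Prkcd sequence lies at chr14:30626209-30626458 on the minus strand, at the more upstream of 2 start sites, and the Ppp1r14c sequence at chr10:3365900-3366149 on the plus strand. The counts themselves were made on mm9, so these positions were not set beside the reads.
Prkcd: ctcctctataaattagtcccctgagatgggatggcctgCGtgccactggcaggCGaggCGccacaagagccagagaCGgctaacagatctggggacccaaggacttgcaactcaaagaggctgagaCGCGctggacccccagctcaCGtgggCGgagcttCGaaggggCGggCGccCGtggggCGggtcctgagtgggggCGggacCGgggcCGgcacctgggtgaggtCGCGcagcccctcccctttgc
Ppp1r14c: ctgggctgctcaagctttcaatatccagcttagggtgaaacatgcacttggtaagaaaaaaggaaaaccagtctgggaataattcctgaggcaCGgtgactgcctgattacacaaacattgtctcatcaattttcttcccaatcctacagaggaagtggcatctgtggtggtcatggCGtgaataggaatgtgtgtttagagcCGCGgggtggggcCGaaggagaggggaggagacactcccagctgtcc

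The stretches differed in base composition. The Prkcd sequence held 18 CpG and was 67.6% G or C, and 78.3% of 32851 promoter windows of this length had fewer CpG. The Ppp1r14c sequence held 5 CpG and was 50% G or C, and 44.4% of windows had fewer, with a median over all windows of 6. The GC box, searched as GGGCGG on both strands, occurred 4 times upstream of Prkcd and 0 times upstream of Ppp1r14c, and 32.7% of all windows held it. TATAAA on either strand occurred once in the Prkcd sequence, in 12.4% of windows, and CCAAT on either strand once in the Ppp1r14c sequence, in 33.8% of windows. CACGTG, which reads the same on both strands, occurred once upstream of Prkcd and in 6.0% of windows. GC boxes and CACGTG contain CpG and are counted there too. A match is a description of the letters only.

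Among the other isoforms of the delta group, Prkch and Prkcq were scarce and Prkce was the most abundant of the 8 PKC members. Prkch, which encodes PKC eta, had 6, 12, 17 and 12 counts in KAT7 mutant replicates 1 to 4, against 31, 44 and 24 counts in wild type replicates 1 to 3. The genotypes did not overlap, but the nearest libraries differed by only 7 counts. Its mean was 1.39 ± 0.54 CPM in mutant (SD, n = 4) and 3.81 ± 1.17 CPM in wild type (SD, n = 3). On the log2 scale the difference was -1.44 ± 0.30 (SE) and ran from -1.68 to -1.19 with single libraries left out. Endothelial markers summed to 6.97 to 9.41 CPM in mutant and 6.65 to 7.81 CPM in wild type libraries, with 0 of 4 tested called.

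Prkcq encodes PKC theta, best known from T cells. It had 10, 17, 13 and 17 counts in KAT7 mutant replicates 1 to 4, against 25, 13 and 20 counts in wild type replicates 1 to 3, and the genotypes overlapped. The log2 fold change was -0.40 ± 0.30 (SE) and was not called, with a value from -0.63 to -0.16 when a library was left out, so a moderate difference was not detectable at this depth. Of 7 T cell markers, Cd3e, Cd8a and Cd2 had 0 counts in all 7 libraries, where 3 counts correspond to 0.339 to 0.367 CPM, and Cd3d, Cd3g and Cd4 had at most 2 counts in any library. Lck alone was tested, with 37, 28, 43 and 34 counts in KAT7 mutant replicates 1 to 4, against 42, 23 and 27 counts in wild type replicates 1 to 3, and was not called. The 7 markers summed to 3.25 to 5.08 CPM in mutant and 2.75 to 4.99 CPM in wild type libraries.

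Prkce encodes PKC epsilon. It had 379, 418, 374 and 403 CPM in KAT7 mutant replicates 1 to 4, against 361, 370 and 364 CPM in wild type replicates 1 to 3. Every mutant library was above every wild type library, by a small margin. The mean was 393 ± 20.4 CPM in mutant (SD, n = 4) and 365 ± 4.83 CPM in wild type (SD, n = 3), and the log2 fold change of 0.11 ± 0.05 (SE) was not called.

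The conventional isoforms Prkca and Prkcb, which encode PKC alpha and PKC beta, overlapped between genotypes. Prkca had 170, 187, 181 and 187 CPM in KAT7 mutant replicates 1 to 4, against 172, 181 and 168 CPM in wild type replicates 1 to 3, with a log2 fold change of 0.06 ± 0.05 (SE). Prkcb had 43.7, 47.2, 34.7 and 42.1 CPM in the mutant replicates, against 41.7, 43.7 and 36.2 CPM in the wild type replicates, with a log2 fold change of 0.05 ± 0.09 (SE). Neither was called, and the sign for Prkcb turned in 2 of 15 alternative fits.

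Of the atypical isoforms, Prkcz (PKC zeta and its brain form PKM zeta) was abundant and Prkci (PKC iota) scarce. Prkcz had 100.3, 103, 105 and 103 CPM in KAT7 mutant replicates 1 to 4, against 99.99, 99.6 and 97.7 CPM in wild type replicates 1 to 3. The mutant libraries were all slightly higher, and the log2 fold change of 0.05 ± 0.05 (SE) was not called. Prkci had 5.37, 6.49, 4.84 and 4.40 CPM in the mutant replicates, against 5.70, 5.95 and 6.67 CPM in the wild type replicates. The genotypes overlapped, and the log2 fold change of -0.21 ± 0.17 (SE) was not called.

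**Figure D2:**
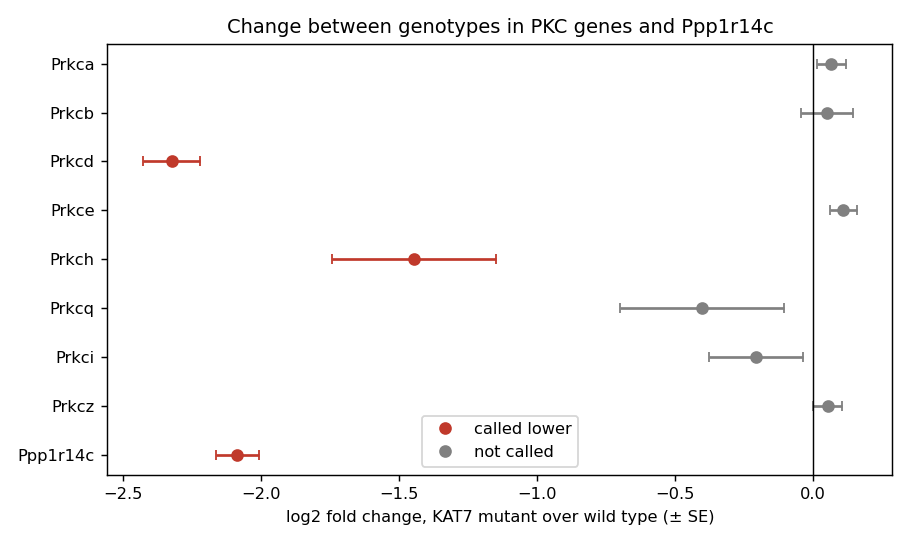
Log2 fold change of KAT7 mutant over wild type for each member with its SE from the edgeR fit (4 and 3 libraries); red marks genes called lower and grey those not called. Prkcd (-2.32), Ppp1r14c (-2.08) and Prkch (-1.44) stand far left of 0, and Prkca, Prkcb, Prkce and Prkcz lie between 0.05 and 0.11.

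Levels were compared between genes as CPM per kilobase of the deposited gene length (RPKM). In KAT7 mutant libraries the order was Prkce (62.9 RPKM), Prkcz (22.4), Prkca (21.7), Ppp1r14c (7.54), Prkcb (4.75), Prkcd (3.68), Prkci (1.18), Prkcq (0.510) and Prkch (0.422). The ranges of Prkcz and Prkca, of Prkcb and Prkcd, and of Prkcq and Prkch overlapped in mutant libraries, so these neighbours were not separated. In wild type libraries the order was Prkce (58.4 RPKM), Ppp1r14c (32.0), Prkcz (21.6), Prkca (20.7), Prkcd (18.5), Prkcb (4.59), Prkci (1.37), Prkch (1.15) and Prkcq (0.676). There the ranges of Prkcz and Prkca, of Prkci and Prkch, and of Prkch and Prkcq overlapped. Ppp1r14c was above every PKC member except Prkce in wild type libraries and below Prkcz and Prkca in mutant libraries.

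Summed over the 8 PKC members, the level was 117.5 ± 4.59 RPKM in KAT7 mutant (SD, n = 4) and 126.9 ± 1.29 RPKM in wild type libraries (SD, n = 3). Without Prkcd the sums were 113.8 ± 4.72 RPKM in mutant and 108.4 ± 2.15 RPKM in wild type libraries. These overlapped, at 109.5 to 119.5 RPKM in mutant and 106.5 to 110.8 RPKM in wild type libraries. The lower sum in mutant libraries thus rested on Prkcd. Prkcd made up 3.14 ± 0.501% of the sum in mutant and 14.55 ± 1.065% in wild type libraries. The share of Prkce was 53.5 ± 0.962% in mutant and 46.0 ± 0.606% in wild type libraries, while its own level differed little, since shares of a sum move together. The delta group together held 57.5 ± 0.519% of the sum in mutant and 62.0 ± 0.707% in wild type libraries.

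**Figure D3:**
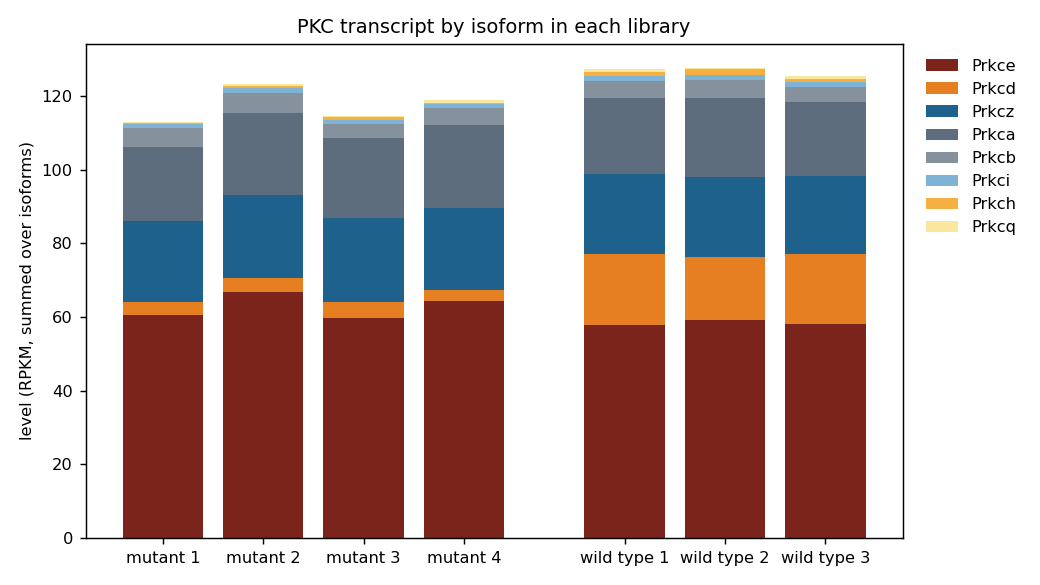
Level of each of the 8 PKC members (RPKM, stacked) in 4 KAT7 mutant libraries (left) and 3 wild type libraries (right). The Prkcd segment is 3.04 to 4.34 RPKM in mutant and 17.0 to 19.5 RPKM in wild type libraries, while Prkce, Prkcz and Prkca fill most of every bar.

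Spread within a genotype was near counting noise for several members and larger for others. In KAT7 mutant libraries the coefficient of variation of CPM was 14.6% for Prkcd and 9.78% for Ppp1r14c, against 11.3% and 7.88% from counting alone, and for Prkcb it was 12.5% against 5.31%. In wild type libraries it was 6.87% for Prkcd, 4.51% for Ppp1r14c and 9.58% for Prkcb, against 4.97%, 3.78% and 5.34% from counting. The abundant Prkce varied by 5.19% in mutant and 1.32% in wild type libraries, against 1.73% and 1.78% from counting. The scarce Prkch varied by 38.5% in mutant and 30.6% in wild type libraries, against 29.2% and 17.4% from counting, and Prkcq by 24.8% in mutant and 33.1% in wild type libraries, against 26.5% and 22.7%. Prkcz varied least, with 1.87% in mutant and 1.20% in wild type libraries against 3.39% and 3.41% from counting.

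Across the 7 libraries, Prkcd and Ppp1r14c had a Pearson correlation of log2 CPM of 0.99. Both genes were lower in every mutant library, so the correlation describes the genotype gap. Within a genotype their order differed. Wild type replicate 2 was lowest for Prkcd (43.1 CPM) and highest for Ppp1r14c (84.4 CPM). The highest mutant library was replicate 3 for Prkcd (11.0 CPM) and replicate 2 for Ppp1r14c (21.2 CPM). Among 12186 named genes with a mean of at least 1 CPM, the closest to Ppp1r14c were Hecw1, a ubiquitin ligase gene (r = 0.9989), Rgs7, a regulator of G protein signalling (0.9986), and Nectin3, a cell adhesion gene (0.9983). Their log2 fold changes were -0.65, -0.91 and -2.11. The closest to Prkcd were Nkd2, an inhibitor of Wnt signalling (0.9980, -3.35), the microtubule regulator gene Stmn2 (0.9972, -2.02) and Garem2, an adaptor gene of ERK signalling (0.9965, -1.34). At r of at least 0.99 there were 54 genes for Ppp1r14c and 40 for Prkcd. Correlation ignores size, as the small change of Hecw1 shows. With Ppp1r14c, Prkch correlated at 0.88, Prkce at -0.67 and Prkcz at -0.75.

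The rest of the pathway was read from 9 lists of 93 genes outside the members, of which 83 were tested. Like the members, these lists were chosen with earlier results of these data known. Their calls and adjusted p-values are therefore a description and not independent tests. In the edgeR fit over all genes, 11 were called higher and 13 lower in KAT7 mutant, 13.3% and 15.7% of those tested, close to the 13.1% and 15.8% of all tested genes. The median log2 fold change of the 83 genes was 0.02, and that of all tested genes 0.00. Of the 24 calls, 16 held in all 15 alternative fits. The other 8 were lost in at least 1 of them and are marked below.

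Upstream, genes that form diacylglycerol changed in both directions. Of 12 tested phospholipase C and Gq subunit genes, 1 rose, 4 fell and 7 were not called, at a median of -0.31. Plcb4, a phospholipase C beta known from cerebellum and retina, had 33.3, 33.4, 31.8 and 31.5 CPM in KAT7 mutant replicates 1 to 4, against 16.0, 15.1 and 16.9 CPM in wild type replicates 1 to 3. It rose by 1.02 ± 0.09 (SE) on the log2 scale (edgeR adjusted p 3.24e-08). Plcd1, a calcium-responsive phospholipase C delta, had 3.15, 2.78, 2.72 and 3.42 CPM in the mutant replicates, against 9.50, 9.27 and 10.3 CPM in the wild type replicates. It fell by 1.68 on the log2 scale (SE 0.16, edgeR adjusted p 1.30e-07). Plcb3 fell by 0.81 and Plch2 by 0.67 on the log2 scale. Plcb1 fell by 0.20, a call lost without wild type replicate 2 (-0.158, edgeR adjusted p 0.103, with 0.00406 to 0.103 over all alternatives). Gnaq, which encodes the alpha subunit of Gq, was at 656 ± 28.4 CPM in mutant (SD, n = 4) and 644 ± 18.8 CPM in wild type (SD, n = 3) and was not called.

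Diacylglycerol kinases, which convert the PKC activator to phosphatidic acid, had 2 called higher, 2 called lower and 5 not called of 9 tested, at a median of 0.04. Dgkz rose by 0.31 ± 0.05 (SE, edgeR adjusted p 0.000168), and Dgka fell by 0.86 on the log2 scale (SE 0.18, edgeR adjusted p 0.000924). Dgke, at 0.21, kept its call in 1 of the 7 fits that left out a library, that without KAT7 mutant replicate 1, with values of 0.143 to 0.265, and lost it by DESeq2, limma-voom and with library size only. Dgki, at -0.27, kept its call in 1 of these 7 fits, that without KAT7 mutant replicate 4, with values of -0.344 to -0.236, and lost it by DESeq2.

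Of 5 related kinase genes tested, Prkd1, Prkd2, Prkd3, Pkn2 and Pkn3, 0 were called by edgeR, at a median of -0.06, and Prkd2 alone had an unadjusted p under 0.05. The protein kinase D gene Prkd3 was at 108 ± 2.47 CPM in KAT7 mutant (SD, n = 4) and 99.5 ± 8.01 CPM in wild type (SD, n = 3), with a log2 fold change of 0.12 (edgeR adjusted p 0.142) that was 0.054 without wild type replicate 1. Prkd1 was at 15.4 ± 1.25 CPM in mutant and 17.6 ± 1.85 CPM in wild type, with a log2 fold change of -0.20 (edgeR adjusted p 0.201) that was -0.123 without wild type replicate 3. Protein kinase D enzymes bind diacylglycerol and are activated by PKC.

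Of 8 tested genes for other proteins with a diacylglycerol-binding C1 domain, 1 rose, 1 fell and 6 were not called, at a median of 0.07. Chn2, which encodes the Rac inhibitor beta-chimaerin, had 59.0 ± 2.85 CPM in KAT7 mutant (SD, n = 4) and 34.3 ± 2.65 CPM in wild type (SD, n = 3). The difference was 0.78 ± 0.07 (SE) on the log2 scale (edgeR adjusted p 9.80e-08). Rasgrp4, a Ras exchange factor known from mast cells, fell by 0.84 on the log2 scale (SE 0.16, edgeR adjusted p 0.000545). Among 11 PKC activators and anchors, the mTOR complex gene Rictor rose by 0.31 and the anchoring protein gene Akap12 fell by 0.65 on the log2 scale (edgeR adjusted p 0.00423 and 4.99e-06). The other 9, among them the PKC-activating kinase gene Pdpk1 and the anchor gene Rack1, were not called.

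PKC substrates of neurons had 4 called higher, 0 called lower and 4 not called of 8 tested, at a median of 0.145. Nrgn, which encodes the calmodulin-binding protein neurogranin, had 21.1, 28.1, 26.7 and 21.9 CPM in KAT7 mutant replicates 1 to 4, against 9.62, 10.5 and 10.1 CPM in wild type replicates 1 to 3. It rose by 1.28 ± 0.12 (SE) on the log2 scale (edgeR adjusted p 1.44e-07). Marcks, the membrane and actin-binding substrate, had 805, 838, 838 and 824 CPM in the mutant replicates, against 622, 651 and 623 CPM in the wild type replicates. The rise was 0.39 ± 0.04 (SE) on the log2 scale (edgeR adjusted p 1.52e-06). The adducin gene Add3 rose by 0.48, and Marcksl1, named outside the rule after its value was seen, rose by 0.26 (edgeR adjusted p 0.000265). Gap43 was at 417 ± 16.4 CPM in mutant (SD, n = 4) and 426 ± 15.6 CPM in wild type (SD, n = 3), Basp1 at 1442 ± 34.3 CPM in mutant and 1429 ± 16.7 CPM in wild type, and neither was called.

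**Figure D4:**
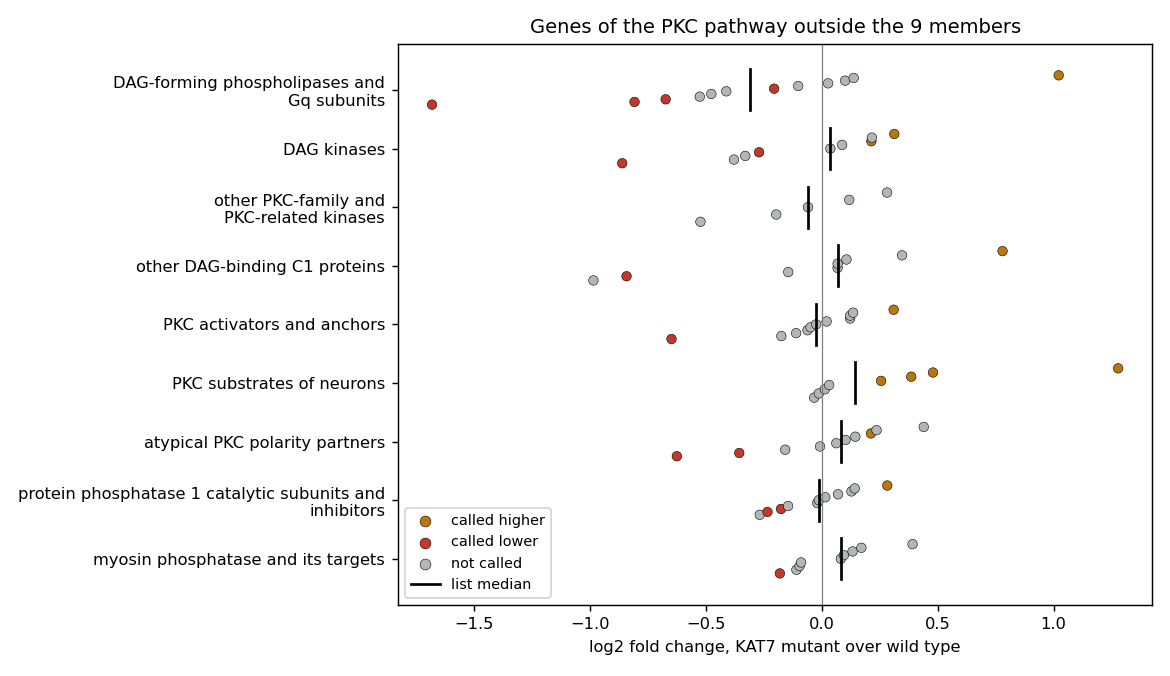
Log2 fold change of KAT7 mutant over wild type for the 83 tested pathway genes outside the members, by list; points are genes, colour gives the edgeR call and black lines are list medians. Plcb4 (1.02) and Nrgn (1.28) lie farthest right and Plcd1 (-1.68) farthest left, and list medians lie between -0.31 and 0.145.

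Partners of atypical PKC in cell polarity had 1 called higher, 2 called lower and 7 not called of 10 tested. The scaffold gene Pard3 had 31.3 ± 2.62 CPM in KAT7 mutant (SD, n = 4) and 48.2 ± 0.937 CPM in wild type (SD, n = 3). It fell by 0.62 on the log2 scale (SE 0.08, edgeR adjusted p 3.03e-06). Llgl1, a substrate of atypical PKC, fell by 0.35 on the log2 scale (SE 0.06, edgeR adjusted p 0.000263). Wwc1, a scaffold gene whose protein is known as KIBRA, was called at 0.21 and lost the call when wild type replicate 1 or 2, or KAT7 mutant replicate 2, was left out (0.167 to 0.294 over the fits with a library left out). The list median was 0.08.

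Around Ppp1r14c, the tested genes of PP1 differed little. Of 11 tested PP1 catalytic subunits and inhibitors, 1 was called higher, 2 lower and 8 not called, at a median of -0.01 and with the 3 calls between -0.23 and 0.28. Ppp1r14b, a relative of Ppp1r14c, had 145 ± 10.9 CPM in KAT7 mutant (SD, n = 4) and 164 ± 12.2 CPM in wild type (SD, n = 3). Its log2 fold change of -0.17 was called (edgeR adjusted p 0.0408). That call was lost in 5 of the 7 fits with a library left out, the exceptions being wild type replicate 2 and KAT7 mutant replicate 2 (-0.232 to -0.113), by DESeq2 and with the replicate block (-0.163, edgeR adjusted p 0.112, with 0.00812 to 0.25 over all alternatives). Ppp1r14a had 2, 6, 3 and 6 counts in KAT7 mutant replicates 1 to 4, against 9, 11 and 11 counts in wild type replicates 1 to 3, and was too low to be tested. Its mean was 0.504 CPM in mutant and 1.19 CPM in wild type libraries, and the genotypes did not overlap. Ppp1r14d had 0 counts in all libraries. The catalytic subunit gene Ppp1cc fell by 0.23 on the log2 scale, a call lost without wild type replicate 3 (-0.201, edgeR adjusted p 0.0523, with 0.00287 to 0.0523 over all alternatives). The inhibitor gene Ppp1r2 rose by 0.28, a call lost without wild type replicate 1 (0.213, edgeR adjusted p 0.082, with 0.00805 to 0.082 over all alternatives). Of 9 genes of the myosin phosphatase and its targets, Myl12b fell by 0.18 on the log2 scale, a call lost without wild type replicate 1 (-0.15, edgeR adjusted p 0.0652, with 0.00534 to 0.0652 over all alternatives), and 8 were not called, at a list median of 0.08.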

How the data were processed

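The authors deposited 1 table of whole-number read counts per Entrez gene identifier for 7 libraries, with a gene length. The counts were made with featureCounts and mm9 is the build named, per the submitters' processing notes. The sources used here do not name the aligner, annotation release or strand setting, and reads shared by overlapping, antisense or near-identical genes remain uncertain. Columns were matched to samples by the sample descriptions. Symbols came from an NCBI gene table of GRCm38.p6, which held 92% of the identifiers, used for names only. Promoter sequences came from RefSeq on GRCm38.p6.

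Genes were filtered with filterByExpr (minimum count 10) and scaled by TMM, and genotypes were compared in edgeR 4.0.16 (R 4.3.3) with the two-sided quasi-likelihood test, genotype being the sole covariate. Benjamini-Hochberg adjustment ran over the 13681 tested genes, with calls at an adjusted p under 0.05. Each SE was taken as the absolute log2 fold change divided by the root of its F statistic. CPM use TMM-adjusted library sizes.

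The members and lists were chosen with earlier results of these data known. Text names Kat7, all members, and up to 3 called genes per direction and list with a mean of at least 1 CPM, or the 2 most abundant where none was called; other pathway genes named as not called, Plcb1, Marcksl1 and the Ppp1r14 relatives, were chosen after their values were seen. Some genes of the lists are not reported here. Genes of like pattern were taken by Pearson correlation of log2 CPM (prior count 2). Alternatives were RLE, upper-quartile and no composition factors, 2 other count filters, DESeq2 1.42.0, limma-voom (limma 3.58.1), the replicate number as a block, and each library left out in turn. The design text gives the libraries as separate mice. No pair within a genotype was a repeat deposit (chi-square per gene 2.05 to 3.67).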

Additional observations from a re-analysis of the deposited data

Results flagged for a closer look

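Kat7, the 9 members and the pathway genes named by the rule, 34 genes in all, were looked at for an outlying mutant library. The other genes named in the text, among them the cell type markers and Gnaq, were not looked at. Of the 34, 3 had a KAT7 mutant library that stood apart from the other 3 of its group (Dixon's gap over range above its 95% critical value), a rule that chance meets in about 1 in 20 groups. Kat7 was highest in KAT7 mutant replicate 4, at 1.22 CPM. Llgl1 was highest in KAT7 mutant replicate 1, at 113 CPM. Ppp1r14b was highest in KAT7 mutant replicate 2, at 162 CPM. No PKC gene of the 9 members met the rule in these 4 libraries, and neither did Ppp1r14c.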

How the results depend on the processing

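Under the 15 alternative fits, Prkcd, Ppp1r14c and Prkch were called lower each time and no other member was called. Their log2 fold changes ran from -2.41 to -2.24, from -2.14 to -2.03 and from -1.68 to -1.19. The fits reuse the same libraries and the members were taken from this contrast, so these calls are a description only. Of all tested genes, 15.8% were called lower in the main fit. The count of pathway genes called higher was 9 to 12 and called lower 10 to 17, against 11 and 13. Over all genes 1273 to 1868 were called higher and 1727 to 2395 lower. No call on a pathway gene turned its direction. Same-numbered libraries did not deviate together (correlations 0.018, 0.012 and -0.029, against -0.037 to 0.052 for unlike numbers). Values near 0 cannot show whether the numbers pair animals, since matched animals need not deviate together. With the replicate block 11 pathway genes were called higher and 13 lower, and 1460 and 1943 over all genes. KAT7 mutant replicate 4 has no wild type library of its number, so it adds nothing to the estimated difference in that fit. Depth limits Prkch, Prkcq and Prkci, at 47, 57 and 179 counts over the mutant and 99, 58 and 159 counts over the wild type libraries.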

Other observations

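Upstream sequence was at hand for 7 of the 9 members, and CpG content of the 250 bases before the start site differed widely among them. Prkca held 39 CpG there, more than 98.4% of all promoter windows, and Prkcq held 30, more than 94.1%. At the most upstream start site Prkcz held 25 CpG, more than 89.3% of windows, and it held 5 CCAAT motifs on either strand. Prkcb and Prkci held 17 CpG each, more than 76.5% of windows. The second start site of Prkcd held 1 CpG, more than 7.9% of windows. These values describe the reference sequence and were not set against the expression differences.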
